A study of Cucumis melo with 12 samples.

Results

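The radicle is the embryonic root that leaves the seed first. Radicles of melon (*Cucumis melo*) that had emerged from seeds inoculated with a high dose of *Bacillus velezensis* FZB42 were compared with radicles of mock seeds, over the 3106 genes on the deposited high-dose list. The series as a whole lists 3256 genes, in seeds and radicles. The members are every identifier on the high-dose list, matched by exact name to the mock list, which holds all of them. Surface-sterilized seeds were soaked for 90 min, high-dose seeds in a washed suspension of FZB42 at 8 log10 CFU per ml and mock seeds in water. Both groups were of the variety Rochet Panal, germinated in the dark on filter paper, and their radicles were taken at 5 days. Radicles from a low dose, from seeds soaked at 7 log10 CFU per ml and otherwise treated alike, are given only beside single genes and for the genes on both lists. Reads were aligned to the genome of the cultivar DHL92, not the variety sampled, and whether a library pools several radicles is not given in the sources used here. Each group had 2 libraries, described as biological duplicates in the methods, but the lists give 1 value per gene for both libraries together. No difference below could therefore be set against a spread between replicates, and no test was run.

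*B. velezensis* lives on plant surfaces, forms spores and secretes cyclic lipopeptides. Plant cells that perceive such bacteria commonly respond with a burst of reactive oxygen species, made by respiratory burst oxidases and used by class III peroxidases, and with oxylipins, the oxidized fatty acids that lipoxygenases start and that include jasmonic acid. Transposable elements are kept silent in most plant tissues and can become transcribed under stress. A radicle grows by cell division at its tip and by cell expansion behind it, and both draw on RNA synthesis and on protein turnover by the proteasome.

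The listed values are named FPKM by the depositors. They are given here as a signal of unstated scale, because exact low values recur across genes. Among the genes on the high-dose list, 37 had a mock value of 0.549 and 46 a mock value of 1.10. How the values relate to gene length is not given in the sources used here. Levels are therefore not compared per length, and ranks are ranks of the listed signal. Differences are log2((high dose + 1)/(mock + 1)), written log2 below. A value under 1e-10 was taken as 0. Only selected genes are listed: none had a log2 between -0.61 and 0.62, so the list says nothing of genes that differed by less. Names were known for 16 genes, from a table of selected genes of the study, and 0 of the 3256 identifiers matched the RefSeq gene table. Markers of root tissue could not be looked up for the same reason, so the tissue label was not checked.

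Of the named genes, a lipoxygenase and a pentatricopeptide repeat protein had higher values in high-dose than in mock radicles, and a peroxidase a lower one. A respiratory burst oxidase, a proteasome subunit, an RNA polymerase II subunit, a transposase and a Gag/pol gene had a value in high-dose radicles and were listed at 0 in mock radicles. Over the whole list, 1209 genes (38.9%) were higher and 1897 (61.1%) lower. By over 1 log2, 972 genes (31.3%) were higher and 773 (24.9%) lower. The direction went with the level: of genes with a mean value under 100, 94.9% were higher at the high dose, and of the others 26.5%. Under quantile normalization the share under 100 was 58.1%, and under median ratio scaling the share at 100 or more was 45.1%. There the mean was taken from the scaled values, so the genes under 100 need not be the same ones. Quantile normalization also makes the values of both groups alike in distribution, so a smaller share under 100 is in part built in. In bulk RNA of a whole organ, fewer cells of a type and less RNA per cell cannot be told apart.

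The balance between directions, as counted on this selected list, depended on scaling. The median ratio of the 2897 genes above 0 in both groups is -0.79 in log2, and scaling that removes it raises the high-dose values alike. It gave 1209 higher and 95 lower genes past 1 log2, and 53.1% higher at any size. The 1209 and the 53.1% follow from the construction. Removing the median splits the 2897 genes evenly, and genes at 0 in mock stay higher. The smallest log2 as listed was 0.62 among higher and -0.61 among lower genes, so the edges of the list lie about equally far from 0. The shift moves both edges off that balance and takes every higher gene past 1. Quantile normalization gave 650 higher and 261 lower past 1 log2, and 31.9% higher at any size. Scaling to equal sums over the listed genes gave 914 higher and 1074 lower past 1 log2. Under it the lower genes past 1 log2 outnumbered the higher ones, the reverse of the values as listed. The list is selected for differences, so none of these scalings rests on genes listed for not differing, and the values as listed are reported. The direction of the 3 named genes above 0 in both groups was kept under each of these scalings. Over the 9 alternatives tried for single genes the log2 of the peroxidase MELO3C002457 ran from -1.50 to -0.26. That of the lipoxygenase ran from 2.35 to 3.24 and that of the pentatricopeptide repeat protein from 1.33 to 2.69. Alternatives that only leave out genes repeat the value of a gene exactly, so these ranges rest on the pseudocounts and scalings.

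Of the 16 named genes, which the study selected on these same samples and which are therefore no independent evidence of a direction, 8 were on the high-dose list. Another 3 (RNA polymerase subunit beta, the myb-type gene HTH and a lipid-transfer protein) were on the mock list but not the high-dose list, and 5 (allene oxide synthase, 3 of the Gag/pol genes and a proline-rich protein) were on neither. A missing gene has no value here. Of the 8 genes, 3 were above 0 in both groups and 5 were listed at 0 in mock. An exact 0 in lists without read counts can be a failed estimate or a lack of reads. These cannot be told apart here, so a 0 is not read as absent or low expression. A proteasome core subunit and an RNA polymerase II subunit, of complexes that every cell uses, are among the genes at 0, and the reason was not tested. A gene at 0 in mock is listed only through its high-dose value, so its direction was fixed by the listing.

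Reactive oxygen genes are represented by a peroxidase and a respiratory burst oxidase, at opposite ends of the range of levels. The peroxidase MELO3C002457, of a family that uses hydrogen peroxide to oxidize phenolics and can stiffen the cell wall, was listed at 23115 in high-dose radicles, against 47778 in mock radicles. It was the gene of rank 58 by level in high-dose and of rank 23 in mock radicles. Its value was 48.4% of mock, a log2 of -1.05, and its loss of signal was the 8th largest on the list. Among the 194 genes whose 2 values average 10000 or more, 103 were lower, with a median log2 of -0.84. The respiratory burst oxidase RBOH (MELO3C020689) passes electrons across the plasma membrane to oxygen and so makes superoxide outside the cell. It was listed at 15.5 in high-dose radicles and at 0 in mock radicles. The list holds 201 genes at 0 in mock, and RBOH had rank 128 among them by its high-dose value. Their median was 18.7, so RBOH stood below the middle of these genes, whose lowest value was 10.1.

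Of the oxylipin genes, the lipoxygenase LOX (MELO3C014630), which adds oxygen to polyunsaturated fatty acids, was listed at 2859 in high-dose radicles, against 519.7 in mock radicles. That is 5.5 times mock, a log2 of 2.46. Of 1692 genes with a mean value of 1000 to 10000, 348 were higher, with a median log2 of 0.99, and LOX was one of 21 that were higher by over 2. Over the mock, low and high dose, LOX was listed at 519.7, 62.4 and 2859. Both doses share the mock value.

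The transposable element genes on the list both had 0 in mock. The Gag/pol gene MELO3C031213, for the capsid and replication proteins of a retrotransposon, was listed at 53.9 in high-dose radicles. The transposase MELO3C028271, which cuts and moves DNA transposons, was listed at 48.9. They had ranks 11 and 13 among the 201 genes at 0 in mock. Both values lay above the median of those genes, but each was under 100, a level that only 5 of the 201 genes reached.

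MELO3C027069, a beta subunit of the core in which the proteasome cuts proteins, was listed at 1799 in high-dose radicles and at 0 in mock radicles. This was rank 1 among the genes at 0 in mock. RPB7 (MELO3C027194), a subunit of the stalk of RNA polymerase II, was listed at 145.6 in high-dose radicles and at 0 in mock radicles, with rank 5. Over mock, low and high dose the proteasome subunit was listed at 0, 2540 and 1799, and RPB7 at 0, 210.8 and 145.6, so both were also above 0 at the low dose. The pentatricopeptide repeat protein PPR (MELO3C008512), of a family that binds RNA in mitochondria and plastids, was listed at 313.0 in high-dose radicles, against 82.7 in mock radicles. That is 3.8 times mock, a log2 of 1.91, near the median of 1.77 of the 235 higher genes with a mean value of 100 to 1000. At the low dose PPR was listed at 0.

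**Figure D1:**
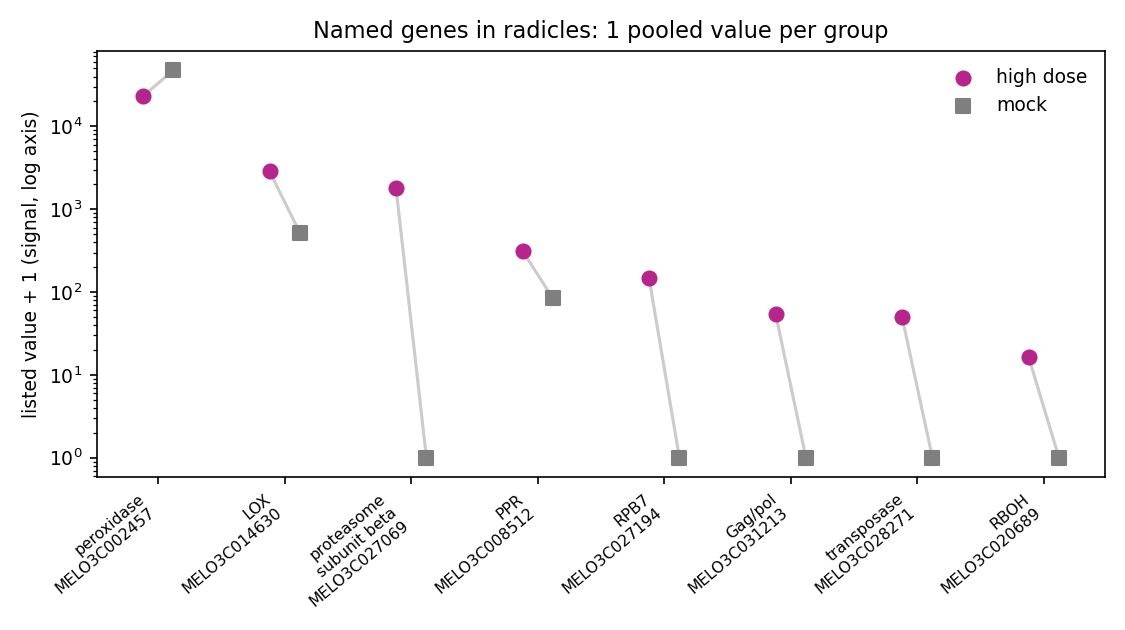
Listed value plus 1 (log axis) of the 8 named genes on the high-dose list, with high-dose radicles as circles and mock radicles as squares joined by a line, 1 pooled value per group and no error bars. The peroxidase is lower in high-dose (23115) than in mock radicles (47778), and 5 genes have their mock point at the bottom, where a listed value of 0 is drawn as 1.

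Beyond the named genes, the extremes of the list were looked up by a rule: the 2 highest and 2 lowest log2 values among the 2612 genes above 0 in both groups and at least 100 in one. The identifiers carry no description here. MELO3C030130 was listed at 228.1 in high-dose radicles and 1.65 in mock radicles, and MELO3C018004 at 2941 in high-dose radicles and 44.4 in mock radicles. In the other direction, XLOC_031706 was listed at 2.95 in high-dose radicles and 625.0 in mock radicles, and MELO3C034130 at 11.2 in high-dose radicles and 279.4 in mock radicles. These are log2 values of 6.44, 6.02, -7.31 and -4.52. Over the pseudocounts and scalings tried, MELO3C030130 ran from 3.32 (quantile normalization) to 7.22 (median ratio scaling), MELO3C018004 from 5.19 to 6.80, XLOC_031706 from -7.75 to -5.62 and MELO3C034130 from -5.39 to -3.77. Each kept its direction. The 2 higher genes had a mock value under 100, and the 2 lower genes a high-dose value under 100.

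Higher and lower genes differed in how far they lay from mock. The 1008 higher genes above 0 in both groups had a median ratio of 3.37 times mock, and their upper quartile was 10.9 times. The 1889 lower genes above 0 in both groups had a median of 52.3% of mock, and the middle range between quartiles ran only from 44.6% to 57.7%. Most lower genes thus sat close to the edge of the list: 1124 of them, or 59.3%, were within 1 log2 of mock, compared with 237, or 19.6%, of the higher genes. Past 2 log2 there were 652 higher and 69 lower genes, and past 3 there were 499 and 25.

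This contrast followed the level of the genes. Where the mean of both values was under 10, 116 genes were higher and 3 lower, and from 10 to 100 there were 419 higher and 26 lower. From 100 to 1000 the numbers were 235 and 421, and from 1000 to 10000 they were 348 and 1344. At 10000 and more the directions were near even, with 91 higher and 103 lower. Under 100, therefore, 94.9% of 564 genes were higher in high-dose radicles, and at 100 or more 26.5% of 2542 genes were, beside 38.9% over the whole list. A listed 0 entered these means as 0, and with genes listed at 0 left out the share under 100 was 93.9%. The boundary at 100 was picked from these levels after the values were seen. Genes under 100 made up 18.2% of the list and 81.9% of the genes that were over 2 log2 higher. They held little of the signal, 0.216% of the high-dose total and 0.0361% of the mock total.

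**Figure D2:**
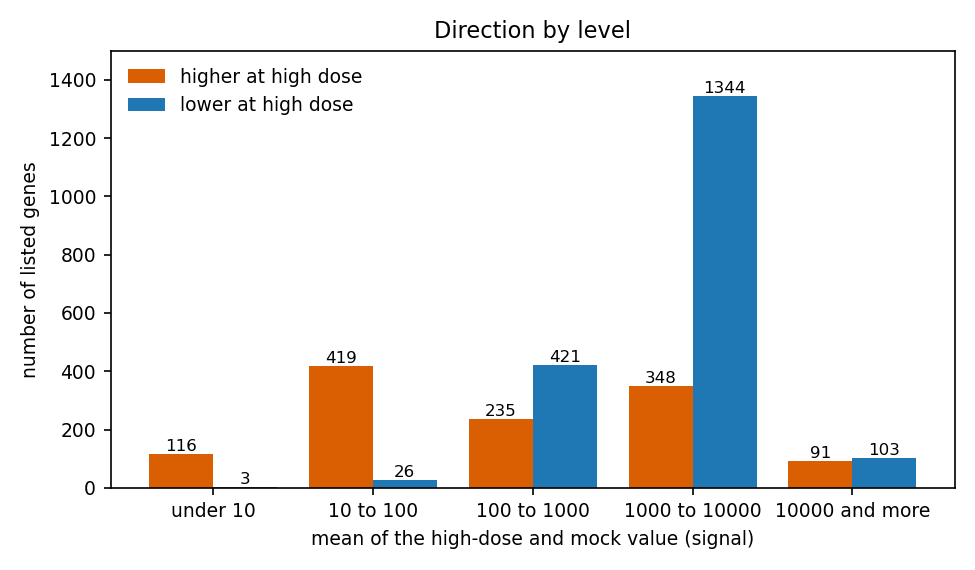
Number of listed genes with a higher (left bar) or lower (right bar) value in high-dose than in mock radicles, by the mean of both values. Higher genes prevail below 100 (116 against 3, then 419 against 26), and lower genes prevail from 1000 to 10000 (348 higher against 1344 lower).

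The distance from mock at which genes enter the list also changed with level. Under a mean of 10, the smallest log2 was 3.47 among higher and -3.71 among lower genes. From 10 to 100 these were 1.85 and -2.003, from 100 to 1000 they were 0.80 and -0.79, and from 1000 to 10000 they were 0.62 and -0.61. The size of differences at low level is thus set in part by which genes are listed. The part of this selection in the surplus of higher genes under 100 was not tested, and under 10 only 3 lower genes give the edge. At a mean of 1000 or more, where the edges lie close to mock, 439 genes were higher and 1447 lower, with a median log2 of -0.87 over the lower ones.

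**Figure D3:**
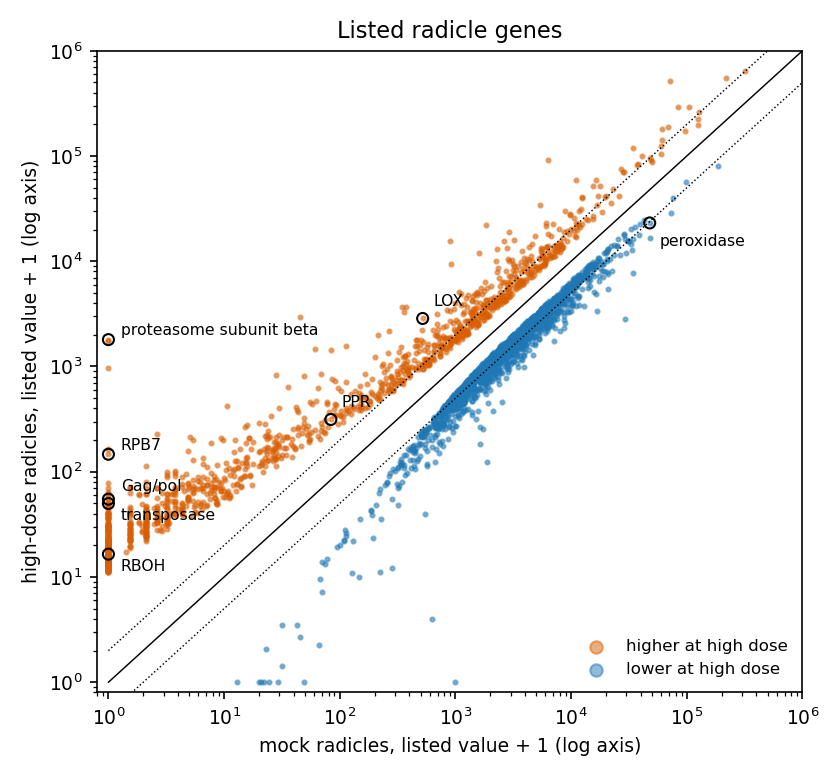
Each point is 1 of the 3106 listed genes, with its value plus 1 in high-dose radicles (y) against mock radicles (x), both axes logarithmic, the solid line marking equal values and the dotted lines a factor of 2 in values plus 1. Both clouds leave a band free around the solid line, higher genes reach down to a mock value of 0, and few lower genes reach a high-dose value under 10.

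The ends of the range were uneven as well. In mock radicles 472 genes had a value under 10, and all 472 were higher in high-dose radicles, with a lowest value of 10.1, a median of 32.1 and a highest of 1799. In high-dose radicles only 19 genes had a value under 10, and all 19 were lower than mock, where they ran from 12.05 to 989 with a median of 42.1. That each of these groups has 1 direction follows from the edges of the list, since a gene near 0 in 1 group is listed only if it is well above that in the other. At exactly 0 there were 8 genes in high-dose and 201 in mock radicles. The 8 genes had a median of 22.3 in mock, and 1 of them reached 100. The 201 genes had a median of 18.7 in high-dose radicles, and 5 reached 100. So genes listed at 0 in a group mostly had low values in the other group, while the 0 itself is not read as a level. The depth behind these values is not known here, and its part in the uneven ends was not tested.

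By signal, the list as a whole summed in high-dose radicles to 1.08 times its mock total. The higher genes summed to 2.37 times and the lower genes to 0.518 times their mock total, a description only, since the sign of the difference defines both sets. The gain was concentrated in few genes: the 3 genes with the largest gain carried 22.5% of it and the 10 largest 42.0%. The loss was spread more widely, with 4.85% on the 3 genes of the largest loss and 9.54% on 10, the peroxidase among them. Genes of very high level at the high dose were mostly higher ones. Of 175 genes listed at 10000 or more in high-dose radicles 133 were higher, whereas of 221 genes at that level in mock radicles 55 were higher. Grouping by the value of 1 group favours genes that are high in that group, so these shares are given side by side only.

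The list holds 163 loci named XLOC, which carry no melon gene identifier, and 2943 MELO3C genes. Of the XLOC loci 139 were higher in high-dose than in mock radicles, or 85.3%, compared with 36.4% of the MELO3C genes. XLOC loci were also of lower level, with 56.4% under a mean of 100, against 16.04% of MELO3C genes. Within levels the shares were closer at the bottom and apart above it. Under 100, all 92 XLOC loci and 93.9% of 472 MELO3C genes were higher. At 100 or more, 47 of 71 XLOC loci, or 66.2%, and 25.4% of 2471 MELO3C genes were higher. At 1000 or more the shares were 57.1% of 35 XLOC loci and 22.6% of 1851 MELO3C genes. What these loci encode is not given in the sources used here.

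**Figure D4:**
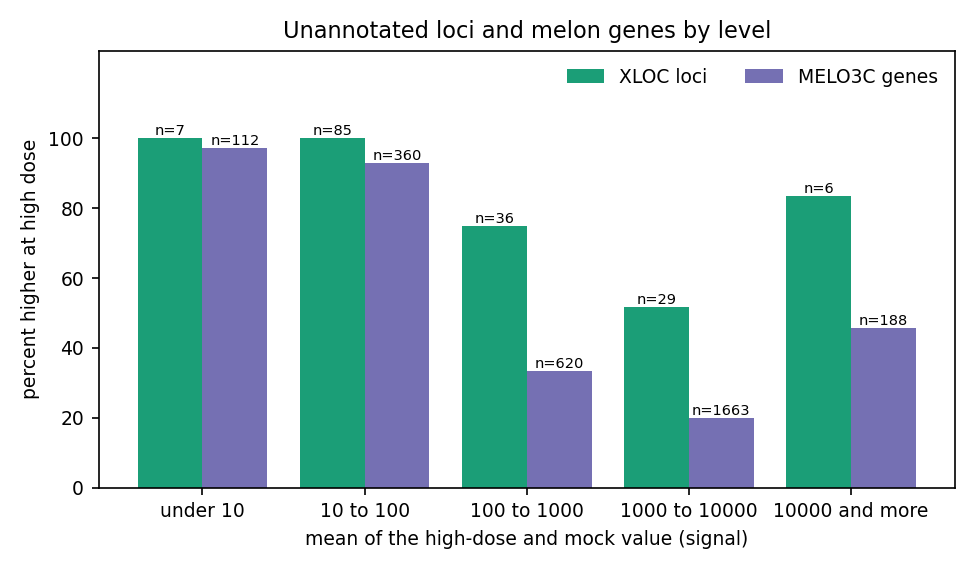
Percentage of loci with a higher value in high-dose than in mock radicles, for XLOC loci (left bar) and MELO3C genes (right bar), by the mean of both values, with the number of loci above each bar. Under 10 and from 10 to 100 both are near the top of the axis, and from 100 upwards the XLOC bars stand above the MELO3C bars.

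Of the listed genes, 2856 were not on the low-dose list, and 250, or 8.05%, were. Of the 2856 genes 35.6% were higher in high-dose than in mock radicles, with a median log2 of -0.78. Of the 250 genes 77.2% were higher, with a median of 1.70. Both doses were set against the same mock values, and the low-dose list also holds selected genes only, so these shares are not independent of it.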

How the data were processed

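The series has 12 RNA-seq samples of 5-day radicles and of seeds, in 6 groups of 2. Groups were taken from the submitters' titles, which are abbreviations read with the help of the methods. The methods describe rRNA-depleted, strand-specific libraries, whereas the labels name polyA RNA. The methods name the DHL92 genome, v4, for alignment, and the processing notes name Bowtie2 and SAMtools. The deposited values are a signal that the authors combined from both libraries of a group for selected genes. How they were combined and scaled is not given in the sources used here, and the lists hold no read counts, so depth and precision are unknown. The overlap of the lists was checked: each high-dose gene is also on the mock list, which holds 41 more genes. How the genes were selected was not tested. The members, the gene lists and the levels of 10, 100, 1000 and 10000 were chosen with earlier results of these data known. No gene was removed, and a pseudocount of 1 was added. Genes named are the 16 of the study's table of selected genes and the 2 highest and 2 lowest log2 values as defined above. Groups of genes by description were not formed, since 0 identifiers matched. Alternatives were other pseudocounts, minimum values, scalings, a threshold of 2, another floor, and leaving out genes at 0 or XLOC loci. Counting was tested on mock values above 100 with known changes made in some of them. That check held no noise, low values or zeros, so it covers the counting only. Values were computed in Python (3.11.15) with the packages numpy (2.4.6), pandas (2.3.3) and matplotlib (3.10.9).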

Additional observations from a re-analysis of the deposited data

How the results depend on the processing

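No paired analysis was possible because the lists carry no value per library, so leaving out a replicate was not run either. A result was taken as kept within 1.5 times, or within the log2 of that factor. A minimum of 100 in one of the groups left 504 genes over 1 log2 higher. Scaling to equal sums gave 914 genes over 1 log2 higher and 1074 lower, each kept by this rule, but with their order reversed. Median ratio scaling, which shifts each high-dose value alike, gave 95 genes over 1 log2 lower, a median log2 over the list of 0.025 in place of -0.76, and 45.1% higher among genes with a mean of at least 100. Quantile normalization gave 261 genes over 1 log2 lower and 58.1% higher among genes with a mean under 100. It makes the values of both groups alike in distribution, so the smaller surplus of higher genes at low level is in part built in. In each scaling the mean was taken from the scaled values, so the genes under 100 need not be the same ones. In quantile normalization, tied values share the mean rank, so genes at 0 in mock no longer stand at 0. A threshold of 2 log2 left 69 lower genes. The split of the list at a mean of 100 was added after the values were seen. Over all alternatives the share of higher genes ran from 28.3% to 53.1%. The upper end came from median ratio scaling, which centres most of the list by construction. Of 62 values of the 7 single genes above 0 in both groups, 14 moved, 7 of them under median ratio scaling, and 0 changed direction. Alternatives that only leave out genes cannot move a single gene, and their values are counted among the 62. The cause of these shifts was not tested beyond what each scaling does by construction. What the depth limits could not be computed without read counts.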
